A study of Mus musculus with 10 samples.

Results

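Genes of fibroblasts and of the extracellular matrix were followed in primary B-cell lymphomas after Adriamycin (ADR, doxorubicin), a DNA-damaging drug. The list holds 35 genes, taken by name. Of these, 33 had a probe set whose annotation named that gene alone, out of 18193 genes with such a probe set on the arrays. Fbn1 and Loxl2 are not analysed here. Where a gene had several such probe sets, the one with the highest mean signal over all 10 arrays stood for it, and no gene was left out for a low signal.

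The study compared untreated and ADR-treated cells of lymphoma_5783, lymphoma_7890, lymphoma_9250, lymphoma_1032 and lymphoma_4936, with 1 array per lymphoma and condition. All 10 samples carried the Emu-myc transgene, which drives the Myc oncogene in cells of the B lineage, a homozygous Suv39h1 deletion and a Bcl2 retrovirus (MSCVpuro) selected with puromycin. Suv39h1 is a histone H3 lysine 9 methyltransferase, and Bcl2 protects cells from apoptosis. The lymphoma cells came from lymph nodes and grew on gamma-irradiated NIH 3T3 cells, a mouse fibroblast line. The ADR group received 0.05 µg/ml for 5 days in vitro. The labels give no age of the mice, name no step that removed feeder cells before RNA extraction, and do not say whether each lymphoma came from a different mouse, so that p-values measure the spread between these 5 lymphomas. Because NIH 3T3 cells are mouse cells, the probe sets cannot tell transcripts of the feeder from those of lymph node stroma or of the lymphoma cells, and in such bulk RNA fewer cells of a type and less RNA per cell cannot be told apart.

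Fibroblasts build the matrix by secreting fibrillar collagens, which are trimmed and assembled outside the cell and crosslinked by lysyl oxidases. Fibronectin, fibulins, thrombospondins and small proteoglycans organise the fibres, and integrins and receptor tyrosine kinases connect the matrix to the cell. Activated fibroblasts also take on smooth muscle actin and its binding proteins. B cells make little of this matrix, while macrophages also express fibronectin and thrombospondin, and Thy1 is a surface protein of T cells as well.

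Signals are on the log2 scale, and a change is the ADR signal minus the untreated signal of one lymphoma, so that a change of 1 is a 2-fold difference. Values in a row of 5 follow the order lymphoma_5783, lymphoma_7890, lymphoma_9250, lymphoma_1032 and lymphoma_4936. Over all probe sets the median signal was 4.15 on the array of ADR-treated lymphoma_1032 and 4.43 to 4.50 on the other 9. The 15 measured B-cell markers had mean signals of 7.86 to 9.32 on the untreated and of 7.31 to 9.19 on the ADR arrays. The 10 measured T-cell markers had mean signals of 4.80 to 5.56 and of 4.89 to 5.30. The table median, the median of all deposited values, was 4.43. Of the 33 fibroblast and matrix genes, 14 exceeded the table median on all 10 arrays, and 19 on at least 5. Of all 18193 genes, 11472 exceeded the table median on at least 5 arrays, so the list did not stand out by this count. Fap, Twist1, Lum, Cnn1 and Myl9 were below the table median on every array. Several genes often used to define fibroblasts thus had only a weak signal here. Counts of genes above or below the table median on every array were not made over all genes.

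With ADR, the mean signal of the fibroblast and matrix genes rose most in lymphoma_5783 and lymphoma_1032. By the mean change over all 5 lymphomas the highest were the collagen gene Col1a2, smooth muscle actin (Acta2), the crosslinking enzyme Lox and fibronectin (Fn1), while Pdgfra had the highest change in lymphoma_5783 and Thbs1 in lymphoma_1032. The mean change of the 33 genes was 0.53 in lymphoma_5783 and 0.25 in lymphoma_1032, against -0.07 in lymphoma_7890, 0.09 in lymphoma_9250 and 0.05 in lymphoma_4936. Over the 5 lymphomas it was 0.17 ± 0.23 (SD, n = 5), with a median gene at 0.17, where the median over all 18193 genes was -0.03. The mean was 0.08 without lymphoma_5783 and 0.02 without both lymphoma_5783 and lymphoma_1032. On average 21 of the 33 genes were higher (63.6%) and 12 lower, where 42.9% of all genes were higher. In lymphoma_5783, lymphoma_1032 and lymphoma_9250, 24, 20 and 20 of the 33 genes were higher, against 9036, 6380 and 8484 of all 18193. In lymphoma_7890 and lymphoma_4936, 13 and 16 of the 33 were higher, a smaller share than the 8906 and 9579 of all 18193. The median change of the 33 genes was 0.14 in lymphoma_1032 and 0.18 in lymphoma_9250, where the medians of all genes were -0.16 and -0.03. It was -0.10 in lymphoma_7890 and -0.07 in lymphoma_4936, where the medians of all genes were -0.01 and 0.03.

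None of them passed the test. In the paired limma fit over all genes, 0 of 33 had an adjusted p under 0.05, and the background was 0% in either direction, since 0 of 18193 genes passed. At an unadjusted p under 0.05, 4 of 33 genes were higher, against 3.05% of all genes, and 1 was lower, against 4.81%. The 4 higher genes were Col1a2, Lox, Fn1 and Acta2, and the lower one was Col1a1. The smallest adjusted p among the 33 genes was 0.629 in this fit. For 28 of the 33 genes the SD of the change over the 5 lymphomas was larger than the mean change. That count was not made over all genes, so it does not set the list apart. The median SD was 0.59, against 0.34 over all genes. No gene of the list had every ADR array above or every ADR array below the untreated arrays, against 0.121% and 0.473% of all genes.

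**Figure D1:**
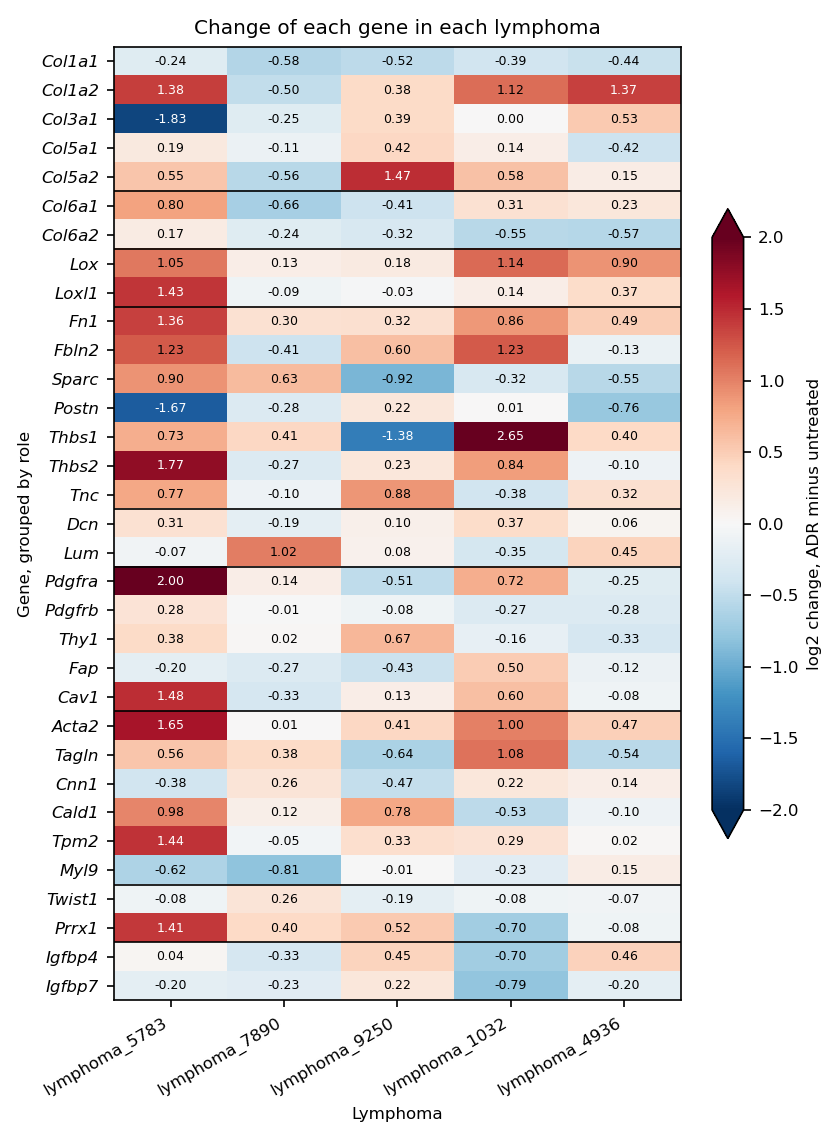
Log2 change (ADR minus untreated, colour, limited at 2 in size) of each of the 33 genes (rows, grouped by role) in each of the 5 lymphomas (columns), with the value printed in each cell. The column of lymphoma_5783 holds most of the strong reds, with 11 genes at 1 or above, and lymphoma_1032 holds 6.

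The fibrillar collagen genes did not move together. Col1a1 and Col1a2 encode the alpha 1 and alpha 2 chains that combine in type I collagen, the main collagen of connective tissue. Col1a1 had signals of 5.32, 4.96, 4.95, 5.04 and 5.39 in untreated and of 5.08, 4.39, 4.43, 4.65 and 4.95 in ADR cells. It was lower with ADR in each of the 5 lymphomas, although the groups overlapped, with a change of -0.43 ± 0.13 (SD, n = 5; adjusted p = 0.629, limma). Another probe set of Col1a1, with a mean of 4.07, below the table median, changed by -0.55, -0.68, 0.66, -0.49 and -0.07. Col1a2 had signals of 7.93, 5.90, 6.14, 7.29 and 4.93 untreated and of 9.31, 5.39, 6.52, 8.41 and 6.30 with ADR. It was higher in 4 of 5 lymphomas and lower in lymphoma_7890, with a change of 0.75 ± 0.81 (adjusted p = 0.629, limma). Its untreated signals spanned 3.01 from lymphoma_4936 to lymphoma_5783. Another probe set of Col1a2 above the table median changed by 2.52, 0.15, -0.06, 0.44 and 0.94, with the other sign in lymphoma_7890 and lymphoma_9250. Without lymphoma_7890 the change of Col1a2 was 1.06. By the probe sets used, the 2 chains thus had opposite changes in lymphoma_5783, lymphoma_9250, lymphoma_1032 and lymphoma_4936. In lymphoma_9250 the other probe sets had the other sign for both chains, 0.66 for Col1a1 and -0.06 for Col1a2. The Col1a1 signals were also weak, from 4.39 to 5.39 beside a table median of 4.43, which limits the comparison.

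Col3a1, the type III collagen of pliable tissues such as lymph node reticulum, had signals of 6.85, 2.91, 2.83, 3.22 and 2.63 untreated and of 5.02, 2.66, 3.22, 3.22 and 3.16 with ADR. Lymphoma_5783 stood apart on both arrays, and its change of -1.83 was the largest decrease of the list. In the other lymphomas the signals stayed at or below 3.22. Col5a2, a chain of the type V collagen that starts fibril growth, had signals of 6.30, 4.59, 3.39, 4.77 and 3.75 untreated and of 6.85, 4.03, 4.86, 5.35 and 3.90 with ADR, and was higher everywhere but in lymphoma_7890 (0.44 ± 0.74; adjusted p = 0.677, limma). Without lymphoma_9250 the mean change of Col5a2 was 0.18. Its partner Col5a1 changed by 0.04 ± 0.32, between -0.42 in lymphoma_4936 and 0.42 in lymphoma_9250. The 2 chains of the beaded-filament collagen VI had mean changes of 0.05 ± 0.59 for Col6a1 and of -0.30 ± 0.30 for Col6a2, which was lower in 4 of 5 lymphomas. Another probe set of Col6a2 above the table median changed by 0.27, -0.03, 0.74, -0.45 and -0.54, with the other sign in lymphoma_9250.

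The 4 upstream sequences show genes with a change of more than 1 in size in lymphoma_5783, higher or lower. Col1a2 and Thbs2 were higher there by 1.38 and 1.77, and Col3a1 and Postn changed by -1.83 and -1.67. Each run is the 250 bases before the start site of the gene in RefSeq (GRCm38.p6), read 5′ to 3′ on the strand of the gene. Capitals mark CCAAT, the binding motif of nuclear factor Y, and TATAAA, the TATA box, on either strand, so that ATTGG and TTTATA are the same motifs on the opposite strand. The choice of these 4 followed a look at their values.
Col1a2: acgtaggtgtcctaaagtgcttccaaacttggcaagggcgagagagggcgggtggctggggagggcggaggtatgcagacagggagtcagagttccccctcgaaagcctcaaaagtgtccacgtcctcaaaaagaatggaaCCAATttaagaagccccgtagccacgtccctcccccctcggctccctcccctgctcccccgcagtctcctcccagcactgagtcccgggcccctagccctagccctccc
Thbs2: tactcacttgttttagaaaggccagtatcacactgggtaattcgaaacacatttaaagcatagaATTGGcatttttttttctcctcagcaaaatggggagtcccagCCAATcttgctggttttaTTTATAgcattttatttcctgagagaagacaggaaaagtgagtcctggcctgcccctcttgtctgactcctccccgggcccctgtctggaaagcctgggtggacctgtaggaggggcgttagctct
Col3a1: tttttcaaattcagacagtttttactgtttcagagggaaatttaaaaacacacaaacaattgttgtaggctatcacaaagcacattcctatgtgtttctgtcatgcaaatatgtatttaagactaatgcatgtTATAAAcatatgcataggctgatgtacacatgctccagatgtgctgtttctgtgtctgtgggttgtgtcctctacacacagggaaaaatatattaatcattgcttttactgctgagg
Postn: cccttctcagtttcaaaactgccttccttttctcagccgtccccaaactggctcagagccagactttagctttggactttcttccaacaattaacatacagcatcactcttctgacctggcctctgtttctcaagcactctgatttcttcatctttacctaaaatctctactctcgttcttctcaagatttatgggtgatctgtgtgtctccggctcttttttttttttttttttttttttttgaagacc

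The Col1a2 run (chr6:4505368-4505617, + strand) holds 1 CCAAT, from 109 to 105 bases before the start site, and the Thbs2 run (chr17:14694263-14694512, - strand) holds 2, at 144 to 140 and, on the opposite strand, at 186 to 182 bases, with a TATAAA on the opposite strand at 126 to 121. The Col3a1 run (chr1:45311288-45311537, + strand) holds no CCAAT and 1 TATAAA, at 117 to 112 bases. The Postn run (chr3:54359017-54359266, + strand) holds neither. Promoters of 21 of the 33 genes were in the RefSeq table. A CCAAT lay in the upstream 250 bases of 5 of these 21 genes (Cald1, Cnn1, Col1a2, Thbs2 and Twist1), against 37.5% of the 27025 genes in the table, counting every start site of a gene. A TATAAA lay in 8 of 21, against 14.3%. GGGCGG, the core of the GC box, lay in 10 of 21, against 35.4%. The CArG box, the motif of serum response factor in many smooth muscle genes, lay in 1 of 21, Myl9, against 1.62%. These matches describe letters and show no binding.

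Lox, the lysyl oxidase that crosslinks collagen and elastin, had signals of 7.92, 6.83, 6.04, 7.98 and 5.15 untreated and of 8.97, 6.96, 6.22, 9.12 and 6.05 with ADR. It was higher in each of the 5 lymphomas, by about 1 in lymphoma_5783, lymphoma_1032 and lymphoma_4936 and by under 0.2 in the others, and the groups overlapped, with untreated signals that spanned 2.83 between lymphomas. The change was 0.68 ± 0.49 (SD, n = 5; adjusted p = 0.629, limma). Another probe set of Lox with a mean above the table median changed by 1.08, 0.44, -0.01, 0.35 and 0.87. Loxl1, a relative that acts on elastic fibres, had signals of 4.29, 4.44, 4.34, 4.14 and 4.30 untreated and of 5.71, 4.35, 4.31, 4.29 and 4.67 with ADR. Its untreated signals lay within 0.29 of each other, and the ADR array of lymphoma_5783 was the only one above 5.

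Among the matrix glycoproteins, Fn1 was higher in each lymphoma. Fibronectin links collagen to integrins and is also secreted by macrophages. Fn1 had signals of 9.14, 6.94, 7.23, 9.20 and 6.91 untreated and of 10.50, 7.23, 7.55, 10.05 and 7.40 with ADR. The untreated cells of lymphoma_5783 and lymphoma_1032 already exceeded every array of the other 3 lymphomas, and the largest changes were in these same lymphomas. The change was 0.66 ± 0.45 (SD, n = 5; adjusted p = 0.629, limma). Fbln2, a fibulin that binds fibronectin and elastic fibres, had signals of 6.28, 5.00, 4.48, 5.95 and 4.71 untreated and of 7.51, 4.59, 5.08, 7.18 and 4.57 with ADR. It was 2-fold or more higher in lymphoma_5783 and lymphoma_1032 and below 5.1 on both arrays of the other lymphomas (0.50 ± 0.76; adjusted p = 0.648, limma).

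The thrombospondins, matricellular proteins that limit vessel growth and bind cell surface receptors, had unlike patterns. Thbs1 had signals of 5.29, 6.92, 4.64, 3.95 and 3.37 untreated and of 6.02, 7.33, 3.26, 6.60 and 3.77 with ADR. Its change of 2.65 in lymphoma_1032 was the largest of the list, lymphoma_9250 had -1.38, and the highest signals were those of lymphoma_7890 under both conditions (0.56 ± 1.43; adjusted p = 0.762, limma). The mean change of Thbs1 was 0.04 without lymphoma_1032 and -0.19 without lymphoma_5783 and lymphoma_1032. Another probe set of Thbs1 above the table median changed by -0.75, -0.19, -0.12, 0.36 and -0.26, so that the 2 probe sets differed in direction in 3 of 5 lymphomas. Thbs2 had signals of 4.54, 3.86, 3.97, 3.80 and 3.74 untreated and of 6.31, 3.59, 4.20, 4.65 and 3.64 with ADR, and only lymphoma_5783 and lymphoma_1032 had ADR signals above 4.5.

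Postn, which encodes periostin, a matrix protein of activated stroma, had signals of 5.86, 3.84, 3.78, 3.66 and 4.17 untreated and of 4.18, 3.56, 4.00, 3.67 and 3.42 with ADR. As for Col3a1, the untreated array of lymphoma_5783 was the highest of all 10 and the decrease was largest there. Sparc, a collagen-binding protein of fibroblasts and endothelium, changed by 0.90, 0.63, -0.92, -0.32 and -0.55, with a mean of -0.05 ± 0.78. Other probe sets of Sparc above the table median had mean changes of 0.08 and -0.06, with 0.30 and -0.07 in lymphoma_1032. Tnc, tenascin C, changed by 0.77, -0.10, 0.88, -0.38 and 0.32, with a mean of 0.30 ± 0.54. The proteoglycan decorin (Dcn), which coats collagen fibrils, differed far more between lymphomas than with ADR. Its untreated signals were 9.05, 5.66, 4.95, 6.85 and 5.35 and its ADR signals 9.35, 5.48, 5.04, 7.22 and 5.40, a range of 4.10 between untreated lymphomas and a change of 0.13 ± 0.22. Lum, lumican, a related proteoglycan with signals below the table median throughout, had untreated signals of 4.02, 3.04, 3.85, 3.46 and 3.55 and ADR signals of 3.95, 4.07, 3.93, 3.11 and 4.00, with its only 2-fold difference in lymphoma_7890.

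**Figure D2:**
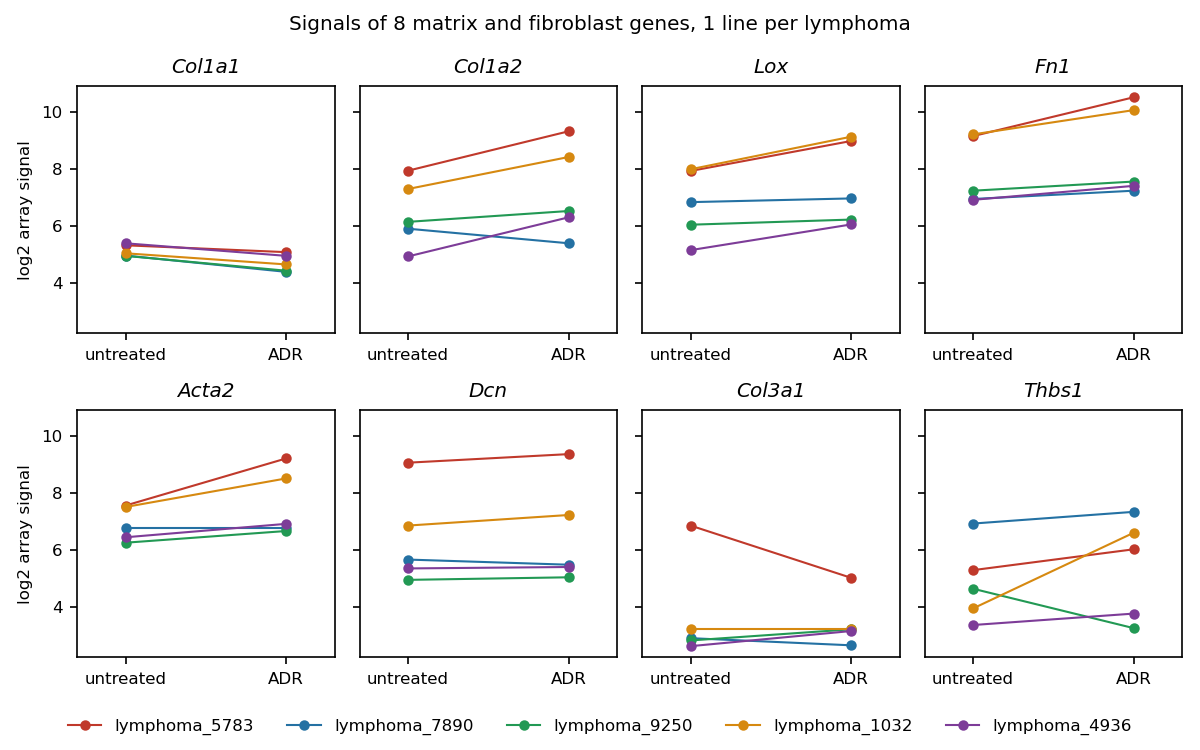
Log2 array signal of 8 genes in untreated and ADR cells, 1 line per lymphoma and 1 point per array. The lines of lymphoma_5783 and lymphoma_1032 lie highest for Lox, Fn1, Acta2 and Dcn, Col1a1 has a lower ADR point on each line, and the line of lymphoma_5783 for Col3a1 runs from 6.85 to 5.02.

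Receptors and surface proteins of fibroblasts differed in level, with Cav1 above the table median on all 10 arrays and Fap below it on all 10. Pdgfra, the receptor for platelet-derived growth factor that marks many mesenchymal cells, had signals of 3.90, 3.66, 4.39, 3.95 and 4.00 untreated and of 5.90, 3.80, 3.88, 4.67 and 3.76 with ADR. The ADR array of lymphoma_5783 was highest, at 5.90, followed by that of lymphoma_1032, and these 2 arrays alone were above the table median (0.42 ± 1.00; adjusted p = 0.746, limma). Without lymphoma_5783 the mean change of Pdgfra was 0.03. Cav1, the caveolin that shapes membrane pits in fibroblasts and endothelium, had signals of 7.26, 5.20, 6.07, 7.02 and 5.93 untreated and of 8.74, 4.88, 6.21, 7.62 and 5.85 with ADR, and was higher in lymphoma_5783, lymphoma_9250 and lymphoma_1032 (0.36 ± 0.71; adjusted p = 0.715, limma). Without lymphoma_5783 the mean change of Cav1 was 0.08. Pdgfrb, Thy1 and Fap, a serine protease of activated fibroblasts, had mean changes of -0.07 ± 0.23, 0.12 ± 0.41 and -0.10 ± 0.36, and no change reached 2-fold in any lymphoma.

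In the contractile group Acta2, the smooth muscle actin of myofibroblasts, had signals of 7.55, 6.75, 6.25, 7.50 and 6.44 untreated and of 9.20, 6.75, 6.66, 8.50 and 6.91 with ADR. It was higher in each lymphoma, by only 0.01 in lymphoma_7890, and the ADR arrays of lymphoma_5783 and lymphoma_1032 were above every other array. The change was 0.71 ± 0.63 (SD, n = 5; adjusted p = 0.629, limma). Tpm2, the beta tropomyosin that stabilises actin filaments, had signals of 6.08, 5.04, 5.21, 6.03 and 5.29 untreated and of 7.52, 4.99, 5.54, 6.32 and 5.31 with ADR, with a 2-fold difference in lymphoma_5783 alone (0.41 ± 0.60; adjusted p = 0.656, limma). Without lymphoma_5783 the mean change of Tpm2 was 0.15. Tagln, the actin-binding transgelin, had signals of 4.93, 4.62, 4.97, 4.33 and 4.67 untreated and of 5.49, 5.00, 4.33, 5.40 and 4.13 with ADR and was 2-fold higher in lymphoma_1032 alone.

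The probe sets of Cald1, the actin and myosin binding caldesmon, gave different answers. The one used here changed by 0.98, 0.12, 0.78, -0.53 and -0.10. Another, whose mean signal was close to it, changed by 1.74, 0.14, 1.09, 1.33 and 0.45, so that lymphoma_1032 was lower by the first and higher by the second. Cnn1, calponin of smooth muscle, and Myl9, a myosin light chain, had signals below the table median on every array, with mean changes of -0.05 ± 0.35 and -0.30 ± 0.41. The mesenchymal transcription factor Prrx1 had signals of 4.05, 3.47, 3.24, 4.08 and 3.99 untreated and of 5.47, 3.87, 3.76, 3.38 and 3.91 with ADR, and lymphoma_5783 with ADR was the only array above the table median. Twist1, a factor of mesenchymal transition, stayed between 2.73 and 3.41. The binding proteins of insulin-like growth factors, Igfbp4 and Igfbp7, were above the table median on all arrays and had mean changes of -0.02 ± 0.50 and -0.24 ± 0.36. Other probe sets of Igfbp4 with a mean above the table median had mean changes from -0.37 to 0.28. Another of Igfbp7 had a mean change of 0.23, with 0.60 in lymphoma_1032, against -0.79 there by the one used.

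Of the 33 genes, 23 had several probe sets. Among the 44 probe sets not used, 14 had a mean signal above the table median, and 9 of these 14 had a mean change of the same sign as the one used.

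Counted by lymphoma, 11 of the 33 genes were at least 2-fold higher with ADR in lymphoma_5783, against 3.66% of all genes. They were Col1a2, Lox, Loxl1, Fn1, Fbln2, Thbs2, Pdgfra, Cav1, Acta2, Tpm2 and Prrx1. In lymphoma_1032, 6 were, against 2.39% of all genes, namely Col1a2, Lox, Fbln2, Thbs1, Acta2 and Tagln. The 4 genes that reached 2-fold in both were Col1a2, Lox, Fbln2 and Acta2, against 0.55% of all genes. In lymphoma_7890 the 1 gene was Lum, in lymphoma_9250 Col5a2 and in lymphoma_4936 Col1a2, against 0.879%, 0.89% and 1.82% of all genes. At least 2-fold lower were Col3a1 and Postn in lymphoma_5783, against 2.33% of all genes, and Thbs1 in lymphoma_9250, against 1.9%. In lymphoma_7890, lymphoma_1032 and lymphoma_4936 no gene of the list was, against 0.445%, 5.97% and 1.06% of all genes. Each lymphoma had 1 array per condition, so these differences have no replicate check within a lymphoma, and the difference between lymphomas was not tested. With the mean of all probe sets of each gene, the counts were 6 in lymphoma_5783 and 2 in lymphoma_1032.

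**Figure D3:**
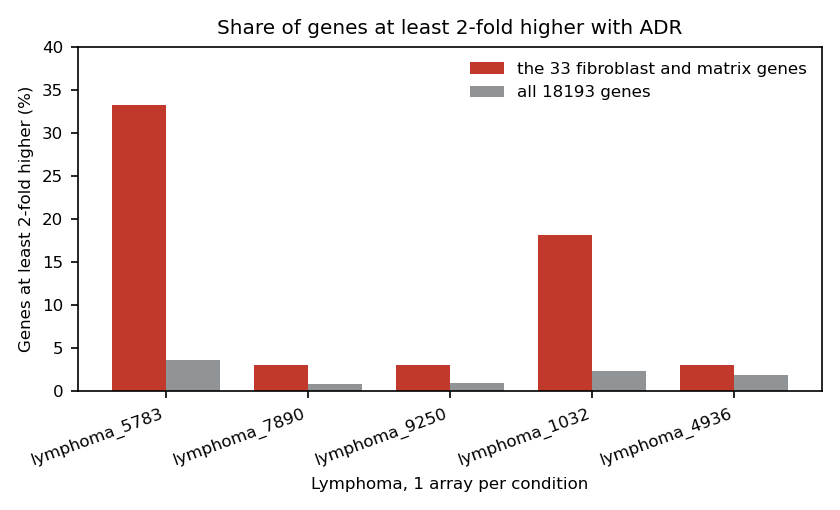
Percent of the 33 fibroblast and matrix genes (red) and of all 18193 genes (grey) that were at least 2-fold higher with ADR, for each of the 5 lymphomas with 1 array per condition. The red bars reach 33.3% in lymphoma_5783 and 18.2% in lymphoma_1032 and stand at 3.03%, 1 gene, in each of the others.

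Array-wide shifts differed between the lymphomas. In lymphoma_1032, whose ADR array had the low median, the median change over all genes was -0.16, while that of the 33 genes was 0.14. In lymphoma_5783 these medians were 0.00 and 0.56.

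The same lymphoma also had the highest untreated signals. Of the 5 untreated arrays, that of lymphoma_5783 was highest for 18 of the 33 genes, against 16.8% of all genes. Of the 10 arrays, its ADR array was highest for 20, against 9.12%, and its untreated array for 5, against 8.72%. The mean signal of the 33 genes on the untreated arrays was 5.70 in lymphoma_5783, 5.15 in lymphoma_1032, 4.79 in lymphoma_7890, 4.74 in lymphoma_9250 and 4.66 in lymphoma_4936, and on the ADR arrays 6.24, 5.40, 4.73, 4.82 and 4.70 in that order. The 2 lymphomas with the highest untreated means thus had the largest mean changes.

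Markers of macrophages also had their largest mean changes in lymphoma_5783 and lymphoma_1032. The 23 measured macrophage markers, of 24 listed, had mean changes of 0.65 in lymphoma_5783 and 0.60 in lymphoma_1032, and of 0.05, -0.04 and 0.19 in lymphoma_7890, lymphoma_9250 and lymphoma_4936. In lymphoma_5783 they moved both ways, with 12 at least 2-fold higher and 5 at least 2-fold lower. Their mean signal ranged from 5.73 to 8.85 on the untreated and from 5.80 to 8.90 on the ADR arrays, with the highest values in lymphoma_7890, where the fibroblast and matrix genes had a mean change of -0.07. The 12 measured neutrophil markers changed by 0.72 on average in lymphoma_1032, with 9 higher and 3 lower. In lymphoma_5783 their mean change was 0.20, but the median was -0.18, with 5 higher and 7 lower. For the 15 B-cell markers the mean change was -0.13 in lymphoma_5783 and -0.55 in lymphoma_1032, and it was 0.21, 0.56 and -0.43 in lymphoma_7890, lymphoma_9250 and lymphoma_4936. Of 12 endothelial markers 9 were lower on average, with means between 4.10 and 4.57 over the 10 arrays. Of 9 markers of pericytes and smooth muscle 8 were lower, with means between 4.15 and 4.46. Both ranges lay near the table median of 4.43, and of all 18193 genes 10395 were lower and 42.9% higher on average. Of the 8 measured markers of lymph node stroma 6 were higher, with a mean change of 0.17 ± 0.16 (SD, n = 5). The part of these cell types in the values of the matrix genes was not tested.

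**Figure D4:**
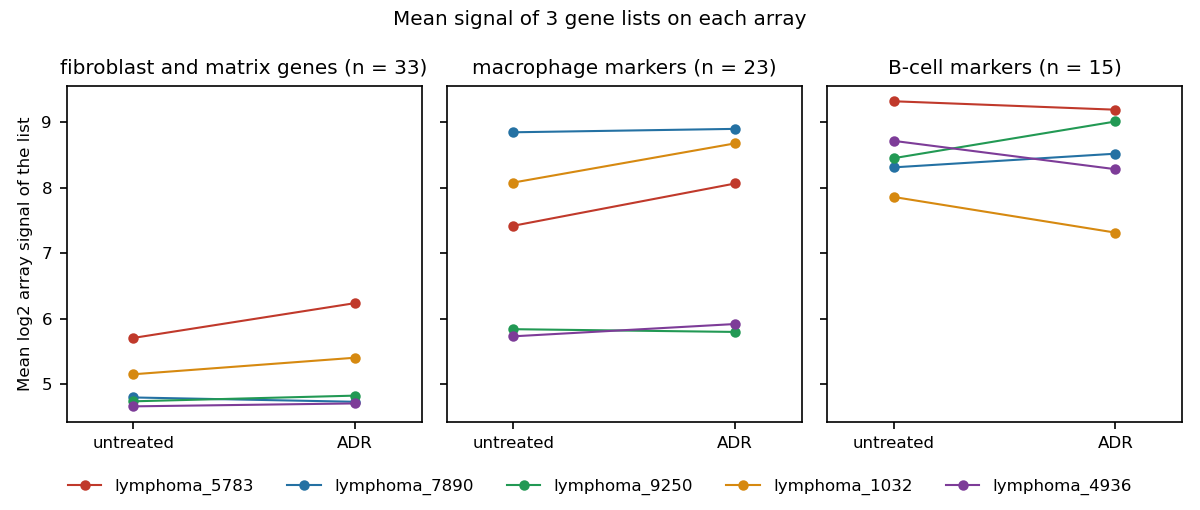
Mean log2 array signal of the 33 fibroblast and matrix genes, 23 macrophage markers and 15 B-cell markers on each array, with 1 line per lymphoma from untreated to ADR. The fibroblast and matrix genes lie highest in lymphoma_5783 and the macrophage markers in lymphoma_7890.

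Other genes of matrix building were read from 6 further lists. Of their 110 measured genes 0 passed the test in either direction in the limma fit. At an unadjusted p under 0.05 there were 9 higher and 3 lower, against 3.05% and 4.81% of all genes. The counts of higher genes below stand beside 42.9% of all genes with a mean change above 0. Enzymes and chaperones of collagen synthesis had a mean change of 0.04 ± 0.11 (SD, n = 5) over 15 measured genes, 8 of them higher and single genes going both ways. P4ha2, a prolyl hydroxylase of collagen chains, changed by -1.68, 0.87, -2.14, -0.71 and 0.29, and Pcolce, an enhancer of procollagen processing, by 2.79, -0.10, 0.73, 1.36 and 0.20. A look at their values led to the choice of both. Other collagens and basement membrane genes had a mean of 0.05 ± 0.18, with 10 of 17 higher. Other matrix and matricellular proteins had the highest mean, 0.21 ± 0.28, with 13 of 20 higher and a mean of 0.68 in lymphoma_5783. In this list Bgn, the proteoglycan biglycan, changed by 0.73, 0.06, 0.42, 1.35 and 0.14, and Ecm1 by 0.72, 0.12, 0.50, 1.21 and 0.20. Mfap2, a microfibril protein, had a change of -0.29 ± 0.13 and was lower in each lymphoma.

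Matrix receptors and fibroblast surface genes had a mean of 0.07 ± 0.20, with 10 of 20 higher. Gas1, a membrane protein first found in growth-arrested NIH 3T3 cells, changed by 1.83, 0.27, 0.33, 1.19 and 0.45, with a mean of 0.81 ± 0.68 (adjusted p = 0.629, limma). Gas6, the ligand of the Axl receptor, had a mean change of -0.59 ± 0.75, with -1.91 in lymphoma_5783. Mesenchymal transcription factors had a mean of 0.00 ± 0.21, with 9 of 19 higher. Among them Wwtr1, which encodes TAZ, a relative of Yap, changed by 3.09, 0.36, 1.06, 0.74 and 0.01, and Meox2 had a mean change of -0.25 ± 0.21. Other actin-binding genes and targets of serum response factor had a mean of -0.02 ± 0.20, with 8 of 19 higher, and in this list Ankrd1, a target of Yap, changed by 0.43 ± 0.34 and Lmod1, a leiomodin of smooth muscle, by -0.25 ± 0.33. Apart from P4ha2 and Pcolce, the 9 genes named from these lists had the largest mean changes of their lists among genes with 1 sign in all 5 lymphomas. Such genes were few, 2 higher and 2 lower of the 20 other matrix and matricellular genes. Matrix receptors, mesenchymal transcription factors and actin-binding genes had 1 higher and 1 lower each, of 20, 19 and 19. Collagen synthesis and other collagens had 0 of 15 and 0 of 17. Of all genes, 3.61% were higher and 5.22% lower in every lymphoma, and of the 33 fibroblast and matrix genes 3 were higher (Lox, Fn1 and Acta2) and 1 lower (Col1a1).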

How the data were processed

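Total RNA was measured on 10 Affymetrix expression arrays, 5 untreated and 5 ADR, paired by the lymphoma number of the titles. The authors deposited logarithmic signals per probe set; RMA and Partek are named for them, without versions, in the submitters' processing notes. The base of the logarithm is not stated, and the deposited values were read as log2 from their range. No detection calls were used, and the precision rests on 5 pairs.

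Of 45101 probe sets, 34945 had 1 gene symbol in the annotation of the platform, 932 several, 64 were controls and 9160 were unnamed there. The limma package (3.58.1, R 4.3.3; lmFit and eBayes) was fitted over 18193 genes, with the lymphoma as a block, two-sided, and Benjamini-Hochberg adjustment over all genes with a threshold of 0.05. Arrays of 1 lymphoma share its number in the labels, and their deviations from the group means correlated at 0.45 to 0.72, each best with its own number. All 35 genes were to be reported, with every array given for those with 1 of the 8 largest mean changes or a 2-fold change in any lymphoma; Col1a1, Col1a2's partner, was added after its values were seen, as were Dcn's array values. Members and lists were chosen with earlier results of these data known. In simulated data with the observed spread of each of 18193 genes, changed genes were drawn at random from all genes. The fit called 60% of 50 genes with a difference of 1, 12% of 50 with 0.5 and 98% of 50 with 2. These shares do not hold for the 33 genes, whose median SD of the change was 0.59, against 0.34 over all genes. Alternatives were no block, 2 filters on low signals, the mean of all probe sets, another quantile normalization, centred arrays, a trended prior, array weights and omission of lymphomas. Python 3.11.15, pandas 2.3.3 and matplotlib 3.10.9 were used.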

Additional observations from a re-analysis of the deposited data

Results flagged for a closer look

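In groups of 5 arrays or 5 changes, the gap of the highest or lowest value to its neighbour exceeded 0.71 of the range in 11 of 100 groups tested. For independent normal values the limit is passed in about 1 in 20. The groups here share arrays, and the changes come from the same signals, so the count cannot be tested against that rate. No such count was made over all genes. Lymphoma_5783 accounted for 7 of them. Its untreated arrays stood apart at 6.85 for Col3a1, 5.86 for Postn and 4.54 for Thbs2, and its ADR arrays at 5.02 for Col3a1, 5.71 for Loxl1 and 5.47 for Prrx1. Its change stood apart at 1.44 for Tpm2. Lymphoma_1032 stood apart with an untreated signal of 5.16 for Col5a1, the lowest of the group, and with ADR signals of 3.11 for Lum, the lowest, and 3.37 for Fap, the highest. The change of Twist1 in lymphoma_7890, 0.26, was highest.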

How the results depend on the processing

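In the limma fit 0 of the 33 genes, and 0 of all genes, passed in each of the 14 alternatives run; the smallest adjusted p of any gene there was between 0.2 and 1, and that of the 33 genes between 0.364 and 1. Without the replicate block, which ignores the pairing, 1 of the 33 genes and 578 of all genes had an unadjusted p under 0.05, against 5 and 1429 with it, and the block changed no call. Leaving out each lymphoma in turn moved the mean change of the 33 genes between 0.08 and 0.23, against 0.17 with all 5, and it was 0.0957 with the mean of all probe sets. The mean change was 0.44 over the 7 genes that a filter at the 70th percentile kept, where fewer genes were measured. Genes at least 2-fold higher numbered 5, 3, 0 and 0 with that filter in lymphoma_5783, lymphoma_1032, lymphoma_7890 and lymphoma_9250. With the filter at the table median, which kept 19 genes, they numbered 7 in lymphoma_5783 and 0 in lymphoma_7890. With the mean of all probe sets they numbered 6 in lymphoma_5783, 2 in lymphoma_1032, 0 in lymphoma_9250 and 0 in lymphoma_4936.

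Mean changes of 18 of the 33 genes kept their sign in every alternative that held them, among them Col1a1, Col1a2, Lox, Fn1 and Acta2. None of the others was called, and the values that turned are these. Without lymphoma_5783 and lymphoma_1032 together they were -0.0921 for Cav1, 0.22 for Col3a1, -0.0369 for Col5a1, -0.28 for Col6a1, -0.0102 for Dcn, 0.19 for Igfbp4, -0.20 for Pdgfra, -0.27 for Tagln, -0.19 for Thbs1, -0.0471 for Thbs2 and 4.33e-05 for Twist1. With each array centred on its median they were 0.0329 for Cnn1, 0.0641 for Igfbp4, 0.0102 for Pdgfrb, 0.0272 for Sparc and 0.0492 for Twist1. After another quantile normalization they were 0.014 for Cnn1, 0.0391 for Igfbp4, 0.00335 for Pdgfrb and 0.0191 for Twist1. With array weights they were -0.0795 for Col6a1, 0.0441 for Sparc and 0.0052 for Twist1. With the mean of all probe sets it was 0.0326 for Pdgfrb. Leaving out 1 lymphoma each, the values ran from -0.12 to 0.0573 for Cnn1, -0.42 to 0.17 for Col3a1, -0.0505 to 0.16 for Col5a1, -0.13 to 0.23 for Col6a1, -0.13 to 0.15 for Igfbp4, -0.29 to 0.16 for Sparc, -0.0593 to 0.37 for Tagln, -0.0200 to 0.23 for Thy1 and -0.10 to 0.00958 for Twist1. The cause was not tested. Probe sets near the table median, without detection calls, limit what can be said of weak genes.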
